A study of Arabidopsis thaliana with 6 samples.

Results

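The genes examined were 10 regulators of flowering time, chosen by locus identifier from the 33557 genes of the authors' deposited table: CDF1, CDF2, CDF3, CDF5, CO, COL1, COL2, FT, FLC and SOC1. Total RNA had been taken from whole seedlings of Arabidopsis thaliana, 10 days old, grown on MS medium with 0.5% sucrose, and sequenced after depletion of ribosomal RNA. Of the 6 libraries, 3 came from the wild type and 3 from plants labelled CPL4 knockdown (CPL4RNAi), both in the ecotype labelled Colombia. CPL4 removes phosphate from the tail of RNA polymerase II. The promoter that drives the RNA interference construct, the number of independent lines, the day length and the hour of harvest are all missing from the labels. No treatment was named for either genotype, and the salt stress of the series title was not part of these libraries.

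Each gene had 1 FPKM value (fragments scaled by transcript length and by all mapped fragments) per genotype, formed by the authors over the 3 replicates, with a p-value and a q-value. No value of a single library was at hand for any of the 10 genes, so no spread between replicates can be shown beside the levels, and the authors' test stands in for it. A gene is said to have risen or fallen where the authors' q was under 0.05. The labels and files used give no library totals, so the depth behind each FPKM is unknown. The target itself was higher in the plants labelled as knockdown, where CPL4 had 8.84 FPKM against 4.92 FPKM in wild type (q = 6.39e-04 per the authors' deposited table). That table does not separate reads of the interference construct from those of the endogenous transcript, so 8.84 FPKM need not be the level of the latter. The group is therefore called the labelled knockdown, and every direction below is drawn from that label.

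In Arabidopsis, flowering under long days depends on a chain of transcription factors that act in the vascular tissue of the leaf. CYCLING DOF FACTORs (CDFs) repress CONSTANS (CO) and FLOWERING LOCUS T (FT) in the morning, and the GIGANTEA and FKF1 proteins remove them in the afternoon of a long day. CO, a B-box protein, then activates FT together with NF-Y subunits, and FT protein moves through the phloem to the shoot tip, where it acts with the bZIP protein FD. FLOWERING LOCUS C (FLC), a MADS-box repressor that prolonged cold silences, holds down FT and SUPPRESSOR OF OVEREXPRESSION OF CO 1 (SOC1), a MADS-box activator in the shoot meristem.

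Windows of 300 bases before the gene start in the RefSeq annotation of TAIR10.1 were read for the 10 genes, because CDF proteins bind DNA at AAAG, CO complexes at CCACA, and the clock proteins CCA1 and LHY at the evening element AAAATATCT. Each motif was searched on both strands, and none contains another. AAAG was present in 99% of 27438 windows of protein-coding genes, with a median of 5 matches, so its presence separates few genes. The FT window held 6 matches, the CO and FLC windows 9 each and the CDF2 window 16, where 8 matches was the 90th percentile. CCACA was present in 32.8% of all windows, with 3 matches before FT, 2 each before CDF2 and CDF3, and 1 each before CDF5, COL1 and SOC1. The evening element was present in 2.79% of all windows and, among the 10, in those of COL2 and FLC, with 1 match each. For some genes the RefSeq start differs from that of the deposited locus. COL2, on the minus strand, starts at 489467 in RefSeq, while its deposited locus ends at 488693. For CO, also on the minus strand, these positions are 5173085 and 5172758. Windows before the deposited loci were not searched. The CArG box, bound by MADS-box proteins such as FLC, was searched only as CC, 6 bases of A or T, then GG. In that form it was present in 2.92% of all windows and in no window of the 10. Looser forms of the box and sites outside the windows were not searched. A match is a description of the letters, not evidence of binding. The windows below are printed 5′ to 3′ on the strand of the gene. For CDF2 and CO the capitals mark AAAG or its reverse complement, to show the dense run before CDF2 beside the CO window. For FT they mark CCACA or its reverse complement, and for COL2 and FLC the evening element. The windows lie at chr5:15878398-15878697 (CDF2, plus strand), chr5:5173086-5173385 (CO, minus strand), chr1:24331073-24331372 (FT, plus strand), chr3:489468-489767 (COL2, minus strand) and chr5:3179449-3179748 (FLC, minus strand).
CDF2: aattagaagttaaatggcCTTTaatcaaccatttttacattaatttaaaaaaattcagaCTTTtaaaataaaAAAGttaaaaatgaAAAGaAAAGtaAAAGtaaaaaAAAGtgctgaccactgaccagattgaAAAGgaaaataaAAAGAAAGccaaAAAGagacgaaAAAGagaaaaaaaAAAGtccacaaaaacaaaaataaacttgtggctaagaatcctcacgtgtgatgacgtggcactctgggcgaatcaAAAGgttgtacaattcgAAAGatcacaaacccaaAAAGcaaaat
CO: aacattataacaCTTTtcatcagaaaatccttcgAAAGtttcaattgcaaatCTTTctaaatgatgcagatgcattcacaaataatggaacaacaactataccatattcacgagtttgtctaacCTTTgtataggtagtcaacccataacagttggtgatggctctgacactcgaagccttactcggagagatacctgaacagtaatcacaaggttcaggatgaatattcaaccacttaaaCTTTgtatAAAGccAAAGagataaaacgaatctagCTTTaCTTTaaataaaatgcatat
FT: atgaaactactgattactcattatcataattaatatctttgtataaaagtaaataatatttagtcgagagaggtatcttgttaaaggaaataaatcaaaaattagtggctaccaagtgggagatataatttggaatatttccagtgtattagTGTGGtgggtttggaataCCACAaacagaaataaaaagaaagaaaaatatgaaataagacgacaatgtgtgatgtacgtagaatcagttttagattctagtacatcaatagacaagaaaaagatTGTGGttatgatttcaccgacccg
COL2: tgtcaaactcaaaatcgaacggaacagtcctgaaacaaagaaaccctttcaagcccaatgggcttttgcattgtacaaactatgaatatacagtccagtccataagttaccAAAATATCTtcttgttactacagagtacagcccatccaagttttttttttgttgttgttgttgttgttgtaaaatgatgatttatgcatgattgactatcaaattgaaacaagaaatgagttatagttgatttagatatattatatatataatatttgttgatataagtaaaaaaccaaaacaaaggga
FLC: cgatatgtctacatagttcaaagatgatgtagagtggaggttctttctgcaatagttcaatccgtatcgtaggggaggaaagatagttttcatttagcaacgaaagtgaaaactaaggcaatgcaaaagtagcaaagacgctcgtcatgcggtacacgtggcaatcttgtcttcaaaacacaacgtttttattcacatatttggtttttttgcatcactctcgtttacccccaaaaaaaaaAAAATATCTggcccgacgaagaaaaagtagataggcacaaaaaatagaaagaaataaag

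Of the repressors, FLC and 3 of the 4 CDF genes were higher in the labelled knockdown, and FT and SOC1, which promote flowering, were lower. All 10 genes carried a test per the authors' deposited table. Of these, 6 rose and 2 fell, where 22.5% of all 18038 tested genes were called in either direction, 12.7% higher and 9.78% lower. CDF1, CDF2, CDF3, COL1, COL2 and FLC rose, FT and SOC1 fell, and CDF5 and CO were not called. The median log2 ratio of the 10 was 0.60, beside −0.0038 over all tested genes. These 10 genes had been picked with results of the same data known, so the counts are a description of them.

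**Figure D1:**
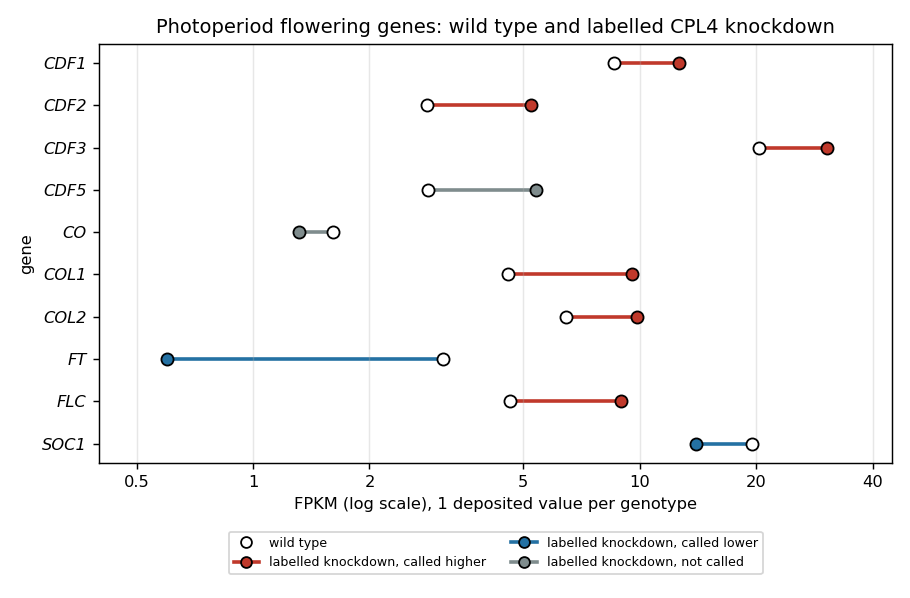
FPKM of the 10 flowering genes on a log axis, with wild type as open circles and the labelled knockdown as filled circles, coloured by the authors' call at q under 0.05. FT moved furthest, from 3.10 to 0.599 FPKM, while the 4 CDF genes, COL1, COL2 and FLC all stood to the right of their wild type value.

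Among the repressors at the head of the chain, CDF3 was the most abundant of the 10 genes in both genotypes. CDF3 (AT3G47500, chromosome 3, 17504000 to 17506058, TAIR10) had 20.3 FPKM in wild type and 30.4 FPKM in the labelled knockdown per the authors' deposited table. This was 1.50-fold higher, a log2 ratio of 0.58 with q = 6.39e-04 per the authors' deposited table, the lowest q that the table holds. CDF1 (AT5G62430, chromosome 5, 25069093 to 25070934), the founding member of the group and a target of FKF1, rose by a like ratio. It went from 8.59 to 12.7 FPKM per the authors' deposited table (log2 ratio 0.56, q = 0.0106). CDF2 (AT5G39660, chromosome 5, 15878699 to 15881044), which acts redundantly with CDF1, CDF3 and CDF5, was lower in abundance. It rose from 2.81 to 5.23 FPKM per the authors' deposited table, 1.86-fold with q = 6.39e-04. CDF5 (AT1G69570, chromosome 1, 26161528 to 26163496) had the largest log2 ratio of the 4, 0.92, but missed the threshold. Its level was 2.84 FPKM in wild type and 5.39 FPKM in the labelled knockdown, with p = 0.0134 and q = 0.0571 per the authors' deposited table.

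CDF5 shares its locus with a long non-coding RNA on the opposite strand, AT1G69572, known as FLORE, which in Arabidopsis oscillates in antiphase to CDF5. FLORE had 6.02 FPKM in wild type and 4.33 FPKM in the labelled knockdown, with q = 0.539 per the authors' deposited table. Its annotation covers 1241 bp, or 56.7%, of the CDF5 gene in the RefSeq annotation of TAIR10.1. The labels do not say whether the libraries kept strand; if they did not, reads of this stretch cannot be told apart between the pair.

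CDF2 was the 1 CDF gene with more than 1 transcription start group, and 1 of them rose. The group TSS27018 went from 1.41 to 4.07 FPKM, 2.89-fold higher with q = 7.81e-04, per the authors' deposited table. The group TSS12285 had 1.40 FPKM in wild type and 1.16 FPKM in the labelled knockdown, with q = 0.789 per the authors' deposited table. Wild type thus divided CDF2 almost evenly, with 50.0% of its FPKM in TSS27018, and the labelled knockdown placed 77.7% there. The difference between the groups was not tested. The deposited table gives both groups the locus of the whole gene, so neither can be tied to a position, and the RefSeq annotation of TAIR10.1 sets the starts of CDF2 transcripts only 28 bp apart. Over all start groups 17.5% were called, 10.2% higher and 7.34% lower. The 10 genes had 12 start groups, and for the 8 genes with 1 group the FPKM of the group was that of the gene.

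**Figure D2:**
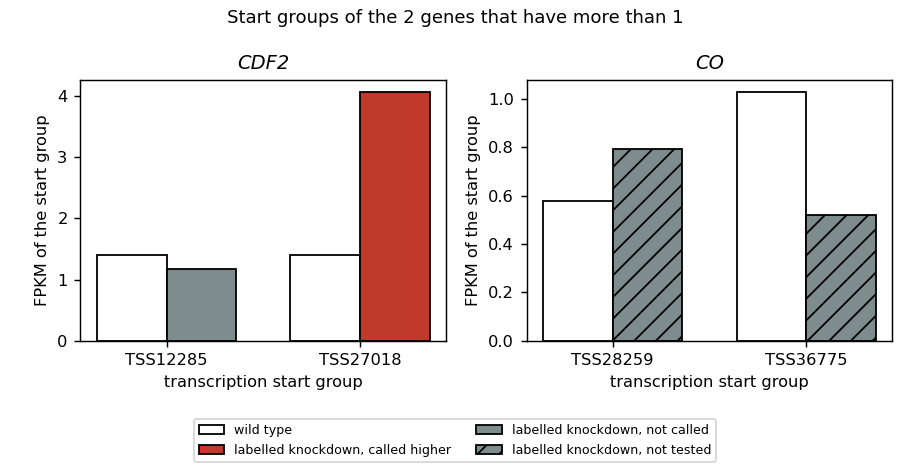
FPKM of each transcription start group of CDF2 and CO, the genes with more than 1 group; open bars are wild type and filled bars the labelled knockdown, 1 deposited value each. In CDF2 the group TSS27018 rose to 4.07 FPKM while TSS12285 stood at 1.40 and 1.16 FPKM; in CO the groups stood in opposite order in the genotypes, at values of 1.03 FPKM or less that carried no test.

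The proteins that set CDF stability and the clock factors that bind CDF promoters were read beside the CDFs. FKF1, the blue-light receptor and F-box protein that marks CDFs for breakdown, fell from 52.2 to 33.6 FPKM per the authors' deposited table (q = 6.39e-04). Its partner GI stood at 81.6 and 73.4 FPKM (q = 0.444) per the authors' deposited table. ZTL and LKP2, the related F-box proteins, had log2 ratios of 0.17 (q = 0.387) and −0.11 (q = 0.626) per the authors' deposited table. Of 6 clock factors, 3 rose and 2 fell, beside 12.7% and 9.78% of all tested genes. The morning factor LHY rose from 0.461 to 7.38 FPKM per the authors' deposited table, and its partner CCA1 from 3.41 to 8.96 FPKM. The LHY log2 ratio of 4.00 was 2.52 with a pseudocount of 1 FPKM, and its start group of highest FPKM was not called (q = 0.425 per the authors' deposited table). PRR9, a repressor of CCA1 and LHY that peaks in the morning, rose from 1.89 to 6.76 FPKM, and the evening gene TOC1 fell from 57.9 to 36.8 FPKM per the authors' deposited table. CDF transcripts peak in the morning too, and the hour of harvest of each genotype is not given. A difference in hour and a difference in level therefore cannot be told apart. The part of the hour in the values of the CDFs, or of the other genes examined, was not tested. Of 5 further DOF genes none passed the threshold. CDF4, the nearest relative among them, stood at 0.434 FPKM in wild type and 1.13 FPKM in the labelled knockdown per the authors' deposited table (p = 0.0377, q = 0.122). COG1, ADOF2, OBP3 and DAG1 had log2 ratios from −0.45 to 0.59 per the authors' deposited table, and at an unadjusted p under 0.05 the list counted 2 higher and 2 lower.

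CO itself was low in both genotypes and was not called. CO (AT5G15840, chromosome 5, 5171182 to 5172758, TAIR10) had 1.61 FPKM in wild type and 1.31 FPKM in the labelled knockdown, a log2 ratio of −0.29 with q = 0.518, per the authors' deposited table. A miss of the threshold does not show that the level was equal, and no interval can be given without library values. Its 2 start groups pointed in opposite directions, at 0.577 and 0.792 FPKM for TSS28259 and at 1.03 and 0.520 FPKM for TSS36775 per the authors' deposited table, neither of them tested. CO protein is regulated by light after transcription, which RNA levels do not show.

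The closest relatives of CO, COL1 and COL2, rose. They are B-box proteins like CO, and raised levels of COL1 are known to shorten the circadian period rather than to hasten flowering. COL1 (AT5G15850, chromosome 5, deposited locus 5173185 to 5177897), the tandem neighbour of CO at a distance of 3005 bp in the RefSeq annotation of TAIR10.1, went from 4.56 to 9.56 FPKM per the authors' deposited table. This rise of 2.10-fold, with q = 6.39e-04 per the authors' deposited table, was the largest of the 10 genes. COL2 (AT3G02380, chromosome 3, 487236 to 488693) went from 6.46 to 9.86 FPKM, 1.53-fold higher with q = 0.00749, per the authors' deposited table. The part of the hour of harvest, which is not given, in the COL1 and COL2 values was not tested. The deposited locus of COL1 is shared with AT5G15845, a non-coding RNA gene on the opposite strand that spans all of COL1 in the RefSeq annotation of TAIR10.1. It stood at 0.479 FPKM in wild type and 1.01 FPKM in the labelled knockdown and was not tested per the authors' deposited table. If strand was not kept, reads of any stretch that AT5G15845 and COL1 transcripts share cannot be told apart between the pair. Exact 25-base words from the transcripts of the 10 genes seldom occurred elsewhere in the genome, on either strand. The share ran from 0% (CDF5, FLC and SOC1) to 3.65% (CDF2, 89 of 2439 words). It was 0.48% for CO, 0.418% for COL1 and 0.269% for COL2. Sharing of reads between these genes was not measured.

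Of the 14 other members of the CONSTANS-like family, 12 were tested, 2 rose and 6 fell, beside 12.7% and 9.78% of all tested genes, with a median log2 ratio of −0.39. COL9, which delays flowering by lowering CO and FT transcripts, fell from 33.1 to 16.3 FPKM per the authors' deposited table. COL10 fell from 28.2 to 15.1 FPKM and COL6 from 132 to 89.2 FPKM, while COL7 rose from 6.05 to 11.1 FPKM, per the authors' deposited table. Activators of CO transcription and partners of CO protein were not called. The bHLH factors FBH1, FBH2, FBH3 and FBH4, which activate CO, had log2 ratios from −0.23 to 0.03 per the authors' deposited table. NF-YB2, NF-YB3, NF-YC3, NF-YC4 and NF-YC9, subunits that join CO at DNA, had log2 ratios from −0.26 to 0.37, 2 of them higher at an unadjusted p under 0.05, per the authors' deposited table. Of 10 genes for photoreceptors and for the ligase that degrades CO protein, 2 rose and 0 fell, beside 12.7% and 9.78% of all tested genes. They were PHYB, the red-light receptor that lowers CO protein in the morning, from 21.7 to 31.7 FPKM, and SPA4, a partner of COP1, from 7.24 to 11.5 FPKM, per the authors' deposited table. The SPA4 call did not hold for its start group of highest FPKM (q = 0.0805 per the authors' deposited table).

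FT fell more than any other of the 10 genes. FT (AT1G65480, chromosome 1, 24331428 to 24333934, TAIR10) had 3.10 FPKM in wild type and 0.599 FPKM in the labelled knockdown per the authors' deposited table. It was 5.18-fold lower, a log2 ratio of −2.37 with p = 0.00465 and q = 0.0257 per the authors' deposited table. Of all tested genes, 0.527% had a lower log2 ratio. FT was the seventh in level among the 10 in wild type and the last in the labelled knockdown, below CO. Both levels were low, and with a pseudocount of 1 FPKM the log2 ratio was −1.36. A stricter q under 0.01 would not call FT, SOC1 or CDF1.

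FT is transcribed in phloem companion cells, and 4 markers of these cells or of wider vascular tissue moved with it. All 4 fell, beside 9.78% of all tested genes. Their summed level went from 253 FPKM in wild type to 125 FPKM in the labelled knockdown. SUC2, the sucrose transporter that loads the phloem, fell from 94.0 to 48.3 FPKM, and SULTR2;1, a sulfate transporter of vascular cells, from 84.6 to 30.8 FPKM, per the authors' deposited table. AHA3, a companion cell proton pump, fell from 67.4 to 40.6 FPKM, and the phloem identity factor APL from 7.05 to 4.94 FPKM, per the authors' deposited table. Their folds ran from 1.43 (APL) to 2.75 (SULTR2;1), beside 5.18 for FT. SULTR2;1 is not particular to companion cells, and without it the largest fold was 1.95 (SUC2). In these bulk samples fewer companion cells and less RNA per companion cell cannot be told apart. The part of these cells in the fall of FT was not tested. Nor was the part of the hour of harvest, which the labels do not give for either genotype.

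**Figure D3:**
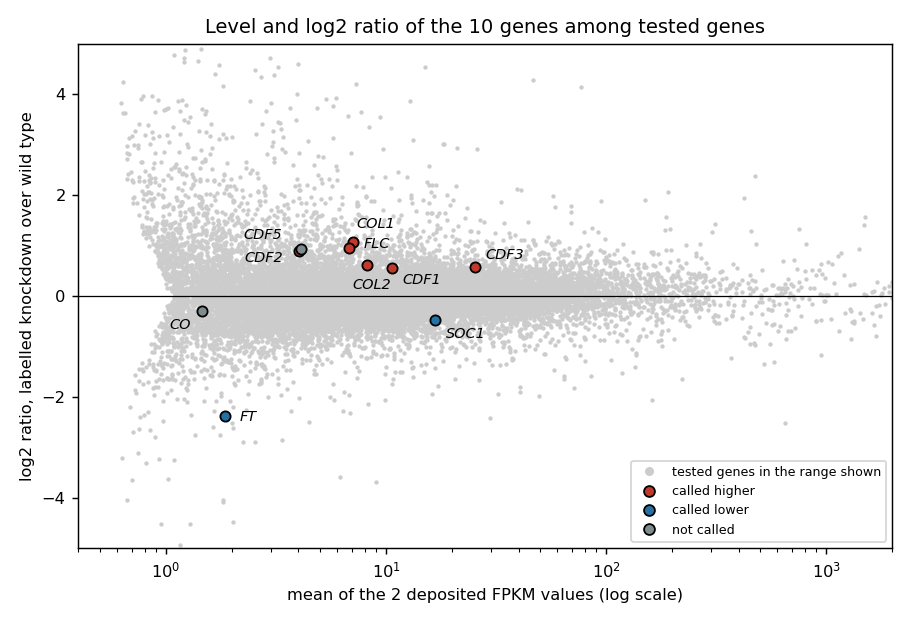
Mean of the deposited FPKM values (log axis) against the log2 ratio of the labelled knockdown over wild type, with tested genes in grey and the 10 flowering genes coloured by the authors' call; grey genes outside the axis limits are not drawn. FT lies at −2.37 at a low level, and the genes called higher lie between 0.56 and 1.07.

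ATC and FD were called among the other genes of the FT family and its partners. Of 8 genes for FT relatives, FD and the FT transporter, 5 were tested. Of these, 1 rose and 1 fell, beside 12.7% and 9.78% of all tested genes. ATC, an FT relative that delays flowering and moves over long distance under short days, rose from 0.718 to 5.05 FPKM, 7.03-fold with q = 0.00337, per the authors' deposited table. Its wild type value was under 1 FPKM, and with a pseudocount of 1 FPKM its log2 ratio went from 2.81 to 1.82. FD, the partner of FT protein in the meristem, fell from 3.29 to 1.84 FPKM (q = 0.0174) per the authors' deposited table. TSF, the nearest relative of FT, stood at 0.101 and 0.302 FPKM and was not tested per the authors' deposited table.

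FLC, the repressor of FT and SOC1, rose in the labelled knockdown. FLC (AT5G10140, listed as FLF, chromosome 5, 3173497 to 3179448, TAIR10) rose from 4.62 to 8.94 FPKM, 1.93-fold with a log2 ratio of 0.95 and q = 6.39e-04, per the authors' deposited table. The antisense transcripts of FLC, known as COOLAIR, belong to AT5G01675, which spans 100% of FLC on the opposite strand in the RefSeq annotation of TAIR10.1. AT5G01675 was not listed in the authors' deposited table, so no level of COOLAIR can be given. If strand was not kept, reads of any stretch that AT5G01675 and FLC transcripts share cannot be told apart between the pair.

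Over all tested genes, 12.7% rose and 9.78% fell, to be read beside each count that follows. Of the 5 relatives of FLC, 0 were called higher by the authors' Cuffdiff test and 1 fell. At an unadjusted p under 0.05, 1 was higher and 2 were lower. MAF2, which prevents flowering after short cold, fell from 11.7 to 7.99 FPKM (q = 0.0217), per the authors' deposited table. FLM, a repressor at low temperature, and MAF4 were not called, with log2 ratios of 0.25 and −0.25 per the authors' deposited table. MAF3 had a log2 ratio of −0.59 (p = 0.0314, q = 0.107) and MAF5 of 1.02 (p = 0.0272, q = 0.0965) per the authors' deposited table. MAF2, MAF3, MAF4 and MAF5 are tandem copies that may share reads, and the placement of such reads is unknown, so their values are uncertain. Among 15 activators of FLC, from the FRIGIDA and PAF1 complexes and chromatin factors, 1 rose and 0 fell, against 2 and 0 at an unadjusted p under 0.05. It was VIP5, a PAF1 complex subunit, from 11.4 to 15.0 FPKM (q = 0.0273) per the authors' deposited table. FRI, whose Columbia allele is inactive, stood at 2.79 and 2.72 FPKM per the authors' deposited table. Of 12 genes of the autonomous pathway, which lowers FLC partly through RNA 3′ end processing, 0 were called by the authors' Cuffdiff test, and 2 were higher at an unadjusted p under 0.05. Their median log2 ratio was 0.17. Of 8 genes of vernalization and Polycomb silencing, 7 were tested and 2 fell. CLF, a Polycomb methyltransferase that silences FLC and FT, fell from 4.61 to 3.32 FPKM (q = 0.0285), and VRN1 from 14.4 to 10.9 FPKM (q = 0.0389), per the authors' deposited table. VIN3, which cold induces, was listed at 0 in wild type and had 0.0184 FPKM in the labelled knockdown per the authors' deposited table.

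Where 12.7% of all tested genes rose and 9.78% fell, 2 of 8 other repressors of FT and SOC1 rose and 0 fell. They were the paired RAV factors TEM1, from 67.3 to 88.8 FPKM (q = 0.0155), and TEM2, from 119 to 165 FPKM (q = 0.00254), per the authors' deposited table; both bind the FT gene and delay flowering in young plants. SVP, the partner of FLC, stood at 56.0 and 60.6 FPKM and was not called (q = 0.582) per the authors' deposited table. SNZ, of the same list, had a log2 ratio of −0.49 (p = 0.014, q = 0.0586) per the authors' deposited table. At an unadjusted p under 0.05 the list counted 2 higher and 1 lower.

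SOC1, where the signals of FT and FLC meet, fell modestly. SOC1 (AT2G45660, listed as AGL20, chromosome 2, 18807538 to 18811047, TAIR10) had 19.5 FPKM in wild type and 14.0 FPKM in the labelled knockdown per the authors' deposited table. It was 1.39-fold lower, a log2 ratio of −0.48 with q = 0.0120 per the authors' deposited table. SOC1 was second in level to CDF3 in both genotypes, and the authors' deposited table gives no spread by which genes of neighbouring level could be told apart. A list of 12 floral integrators and targets, not all of them downstream of FT and SOC1, was read next. Of the 12, 5 were tested, with a median log2 ratio of −0.76. Of these, 0 rose and 2 fell, beside 12.7% and 9.78% of all tested genes. SEP3, a MADS-box gene that FT activates in leaves, fell from 7.16 to 4.01 FPKM (q = 0.00166) per the authors' deposited table. SPL9, a promoter of the adult phase, fell from 5.64 to 3.42 FPKM (q = 0.00718) per the authors' deposited table. SPL9 is not taken here as a target of FT or SOC1. AGL24, the dimer partner of SOC1, stood at 2.50 and 1.48 FPKM (p = 0.0198, q = 0.0768) per the authors' deposited table. AP1, CAL, LFY and FUL, which act as flowers form, were each under 1 FPKM in both genotypes and were not tested per the authors' deposited table.

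**Figure D4:**
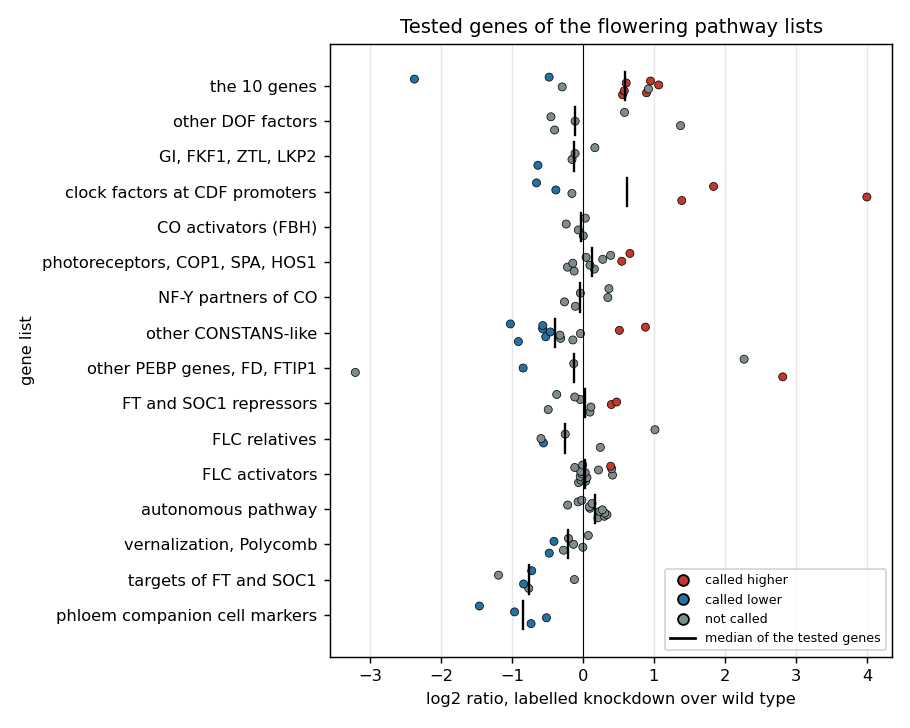
Log2 ratio of each tested gene in the flowering lists and in the phloem companion cell markers, coloured by the authors' call, with a bar at the median of the tested genes of each list. The lists drawn as phloem companion cell markers and as targets of FT and SOC1 lie below 0. The former includes SULTR2;1 of vascular cells, and the latter includes floral integrators that are not all downstream of FT and SOC1. The autonomous pathway lies between −0.21 and 0.34 and the FLC activators between −0.11 and 0.42. These lists hold 1 call among them, where 22.5% of all tested genes were called.

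Over the 15 lists of pathway genes, which hold 118 genes besides the 10, 104 were tested, 11 rose (10.6% of those tested) and 15 fell (14.4%), beside 12.7% and 9.78% of all tested genes. The tissue was checked against further markers. Leaf mesophyll markers summed to 22099 FPKM in wild type and 18021 FPKM in the labelled knockdown per the authors' deposited table, where LHCB1.3 fell from 15003 to 9631 FPKM, while RBCS1A (4637 and 5823 FPKM, q = 0.122) and RCA (2459 and 2566 FPKM, q = 0.826) were not called. Root markers summed to 601 and 612 FPKM per the authors' deposited table. Most of this was PYK10, at 589 and 593 FPKM and not called (q = 0.967 per the authors' deposited table). PHO1 rose, and the root epidermis gene WER was under 1 FPKM in both. The 4 floral organ identity markers were each under 1 FPKM in both genotypes. Of 4 shoot meristem markers, CLV3 was listed at 0 in both genotypes and WUS at 0 in wild type, while STM and KNAT1 were not called, with log2 ratios of 0.24 and 0.33, per the authors' deposited table. Seed storage markers summed to 0.899 FPKM in wild type and 13.5 FPKM in the labelled knockdown; CRA1 rose from 0.278 to 9.65 FPKM and CRU3 from 0.289 to 2.77 FPKM per the authors' deposited table, and neither was called for its start group of highest FPKM. The part of these seed transcripts in the flowering gene values was not tested.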

How the data were processed

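Each genotype had 3 biological replicates per the labels, sequenced in pairs of 100 bp reads. The submitters' processing notes list TopHat2 2.0.14 and Cuffdiff 2.2.1.3 for TAIR10, besides Trim Galore 0.4.0, CASAVA 1.8.2 and SAMtools, with neither options nor strand. Per the file headers, the authors' FPKM come from Cuffdiff, with 1 value per genotype for every gene and every start group. Each deposited row carries the authors' p-value and q-value, and 1411 genes share the lowest p-value of 5.00e-05. Benjamini-Hochberg adjustment over the 18038 tested genes differed from the deposited q by at most 5.25e-07. 15512 genes were not tested and 7 exceeded the depth limit.

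Log2 ratios were formed from the deposited FPKM values with no pseudocount, since spreadsheet errors stand in the deposited column. Calls are those of the authors' test at q under 0.05. Deposited starts, counted from 0, were raised by 1. Of 150 listed genes 149, all but COOLAIR, were matched by locus identifier. List symbols are those in common use. RefSeq sequences of TAIR10.1 were read with RefSeq coordinates of the same assembly. Named were the 10 genes and their start groups, CPL4, overlapping genes and every gene of a pathway list of 5 or fewer. From each longer pathway list up to the 4 called genes of largest log2 ratio were named. Further genes (FRI, VIN3, TSF, SVP, SNZ, AGL24 and the floral and marker genes) were chosen after their values were seen. The members and lists were chosen with earlier results of these data known. A deposited coverage table of snRNA regions was not used here. Alternatives were a stricter q, unadjusted p, pseudocounts of 1 and 0.1 FPKM, a filter at 1 FPKM, median centring and start groups. The Benjamini-Hochberg step was tested on simulated data. Python 3.11.15, numpy 2.4.6, pandas 2.3.3 and matplotlib 3.10.9 were used.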

Additional observations from a re-analysis of the deposited data

How the results depend on the processing

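No paired analysis was possible because each gene had 1 deposited value per genotype and no value of a single library; for the same reason no replicate could be left out. The 6 higher calls among the 10 genes went to 5 at q under 0.01, where CDF1 (log2 ratio 0.56) was no longer called, and the 2 lower calls went to 0, since FT (−2.37) and SOC1 (−0.48) passed at 0.05 only. At an unadjusted p under 0.05 CDF5 (log2 ratio 0.92) was called as well. Over the pathway lists the 11 higher and 15 lower calls went to 9 and 9 at q under 0.01. At an unadjusted p under 0.05 they went to 21 and 21. With the start group of highest FPKM in place of the gene, the marker lists had 1 higher call instead of 3, without CRA1 and CRU3; the pathway lists had 9 higher and 14 lower calls instead of 11 and 15, without LHY, SPA4 and COL8; and CO gave no value because neither of its groups was tested. None of the 10 genes changed direction under any of these settings. The filter at 1 FPKM removed none of the 18038 tested genes and so changed nothing, and centring on the median of tested genes moved log2 ratios by 0.0038. Pseudocounts changed no call, since the authors' test does not use them. The depth behind each value is unknown.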
